A study of Mus musculus with 14 samples.

Results

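Peg3, Zim1, Usp29, Mest, Peg10, Sgce, Plagl1, Grb10, Impact and Igf2r are imprinted genes of several chromosomes whose controlling regions take up DNA methylation in the oocyte. They were followed in cloned and IVF-derived mouse blastocysts on 1-color Agilent whole mouse genome arrays. Members were the gene probes that the scanner files of the IVF-derived samples name by one of these 10 symbols, which gave 17 of the 41174 gene probes. Cumulus cells served as nuclear donors for all clones, of which 4 were made by cell fusion (fusion clones) and 4 by nuclear injection (injection clones). Embryos from in vitro fertilization served as controls, with 3 males and 3 females. All were blastocysts at E4.0 grown in KSOM, a simple embryo culture medium, and all clones were female. The labels give no treatment, no strain and no engineered allele for these samples, and the series text calls the controls matched for sex and genotype. The study's methods describe cumulus donors heterozygous for a knockout of Xist, a gene of X chromosome inactivation, on the BDF1 hybrid background. They also name BDF1 oocytes and BDF1 controls. The labels do not say whether this held for these blastocysts. Total RNA went through linear amplification before labeling. Whether each sample held 1 blastocyst or a pool is not clear from the labels, so that a numbered clone or embryo below means 1 sample. Nothing in the labels says that the samples of a group came from separate cultures or donors, so that p-values measure only the spread between these samples.

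Imprinted genes are read from the copy of 1 parent. The mark that decides which copy is read is DNA methylation laid down in the egg or the sperm, which has to survive the loss of methylation that the rest of the genome goes through before implantation. For the loci treated here the mark is laid down in the oocyte, and it usually silences the maternal promoter, so that Peg3, Usp29, Mest, Peg10, Sgce, Plagl1 and Impact are read from the paternal copy. Igf2r is the reverse, since the methylated region lies over the promoter of the noncoding RNA Airn, and the paternal Airn transcript silences Igf2r in cis in many tissues. Zim1 is read from the maternal copy beside Peg3, and Grb10 from the maternal copy in most tissues. Arrays do not tell the parental copies apart, so that the values below are the sum of both. In whole blastocysts, fewer cells of a type and less RNA per cell cannot be told apart.

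ZFP57 is a zinc finger protein that keeps methylation at imprints, and its core hexamer is TGCCGC. Sequence ahead of the transcription start is shown for members whose oocyte-methylated region lies at the promoter (Mest, Plagl1, and the stretch between the outermost annotated starts of Peg3 and Usp29, which run in opposite directions), and for Igf2r, whose own promoter is not the oocyte-methylated region. Sequences are from RefSeq on GRCm38.p6, written 5′ to 3′ in the direction of the gene (of Usp29 for the shared stretch). Capitals mark TGCCGC or its reverse complement GCGGCA, searched on both strands.
Mest, chr6:30737800-30738049, plus strand: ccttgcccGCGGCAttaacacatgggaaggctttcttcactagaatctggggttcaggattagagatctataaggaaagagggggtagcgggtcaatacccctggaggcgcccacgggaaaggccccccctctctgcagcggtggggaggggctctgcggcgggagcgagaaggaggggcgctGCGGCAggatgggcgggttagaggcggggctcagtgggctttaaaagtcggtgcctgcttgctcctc
Plagl1, chr10:13090582-13090831, plus strand: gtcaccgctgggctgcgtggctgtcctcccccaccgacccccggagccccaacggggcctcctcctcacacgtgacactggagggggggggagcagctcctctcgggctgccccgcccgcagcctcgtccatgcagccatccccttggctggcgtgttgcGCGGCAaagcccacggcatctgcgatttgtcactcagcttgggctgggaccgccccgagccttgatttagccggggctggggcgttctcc
Peg3 to Usp29, chr7:6730463-6730558, plus strand: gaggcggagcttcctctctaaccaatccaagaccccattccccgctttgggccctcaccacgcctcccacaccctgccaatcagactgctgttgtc
Igf2r, chr17:12769707-12769956, minus strand: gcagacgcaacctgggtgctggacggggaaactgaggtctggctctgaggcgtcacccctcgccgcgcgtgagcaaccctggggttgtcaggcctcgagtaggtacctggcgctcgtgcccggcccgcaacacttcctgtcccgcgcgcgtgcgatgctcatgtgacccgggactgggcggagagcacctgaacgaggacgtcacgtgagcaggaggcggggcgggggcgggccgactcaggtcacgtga
The Mest sequence holds 2 hexamers and 14 CpG, and the Plagl1 sequence holds 1 hexamer and 19 CpG. The 96 bases between the outermost starts of Peg3 and Usp29 hold 0 hexamers and 3 CpG, and the Igf2r sequence holds 0 hexamers and 27 CpG. In RefSeq windows of 300 bases (250 before the start and 50 after it), 11.6% of 32851 windows held the hexamer, and 7 CpG was the median. Among the 7 members with such a window that was examined, Grb10, Mest, Plagl1 and Zim1 (4 members) held it in a window. Windows were taken at annotated starts, whether or not an oocyte-methylated region lies there, and the Grb10 windows differed, with 1 and 0 hexamers. Counted by window, 5 of 10 held it, with overlapping windows of Mest among them. These member windows held 8 to 45 CpG. A match of letters is a description of the sequence, not a measured binding site.

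Most of these genes were measurable in blastocysts, but not evenly. The scanner software marks a spot as well above background when its signal clears the local background by a set margin. By this mark, 16 of the 17 probes were detected on at least 1 array, and 5 on all 14 arrays, those of Igf2r, Impact and Mest and both probes of Sgce. Over the whole array 17964 gene probes were detected on all 14 arrays. Where a gene had several probes, the brightest is reported and the others are given beside it. The brightest probe was the one nearest the 3′ end of the gene in Peg3, Grb10, Plagl1 and Sgce, and the farther one in Usp29. Values are log2 of quantile-normalized intensity with a floor of 4, and they compare samples for 1 probe, never one probe with another. In what follows, values are listed in the order of replicate number.

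On each array 57.5% to 65.2% of gene spots were well above background. The IVF arrays held 6790 to 9981 gene spots with a processed intensity below 0 and the clone arrays 0, so that background subtraction differed between them, which bears on dim probes. All 6 epiblast markers and all 7 trophectoderm markers were detected on every array. The summed intensity of the trophectoderm markers was 637200 to 921100 in clones and 871100 to 1023000 in embryos, and Elf5, a transcription factor of trophoblast stem cells, read 8.10 to 11.39 in clones and 13.03 to 14.60 in embryos. Krt18 was lower in every clone than in every embryo too. Cdx2, Eomes, Gata3, Krt8 and Tfap2c overlapped between clones and embryos, and Krt8 and Krt18 made up most of the summed intensity. Zfp42, an epiblast marker, was higher in every clone (15.77 to 16.39) than in every embryo (15.07 to 15.45). The part of these markers in the clone differences below was not tested. Of the 5 primitive endoderm markers, 2 to 5 were detected, and of the 8 cumulus cell markers, 2 to 5, with Lhcgr, the luteinizing hormone receptor, detected on 0 arrays. The summed intensity of the cumulus markers was 1040 to 2658 in the fusion clones, 1605 to 2546 in the injection clones, 797 to 1034 in the male and 961 to 1003 in the female IVF-derived embryos. Of these markers Amhr2, the receptor of anti-Müllerian hormone, was higher in every clone (9.82 to 11.31 on the log2 scale) than in every embryo (7.97 to 9.59). Cyp11a1, a steroidogenic enzyme, ran from the floor to 6.32 in clones and from the floor to 7.20 in embryos. Of 6 oocyte markers on the array, 2 to 5 were detected. Each group was hybridized on a slide of its own, and clones and IVF-derived embryos were scanned on different scanners and read with different software versions. Clone status and these technical differences cannot be told apart in any clone comparison below.

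**Figure D1:**
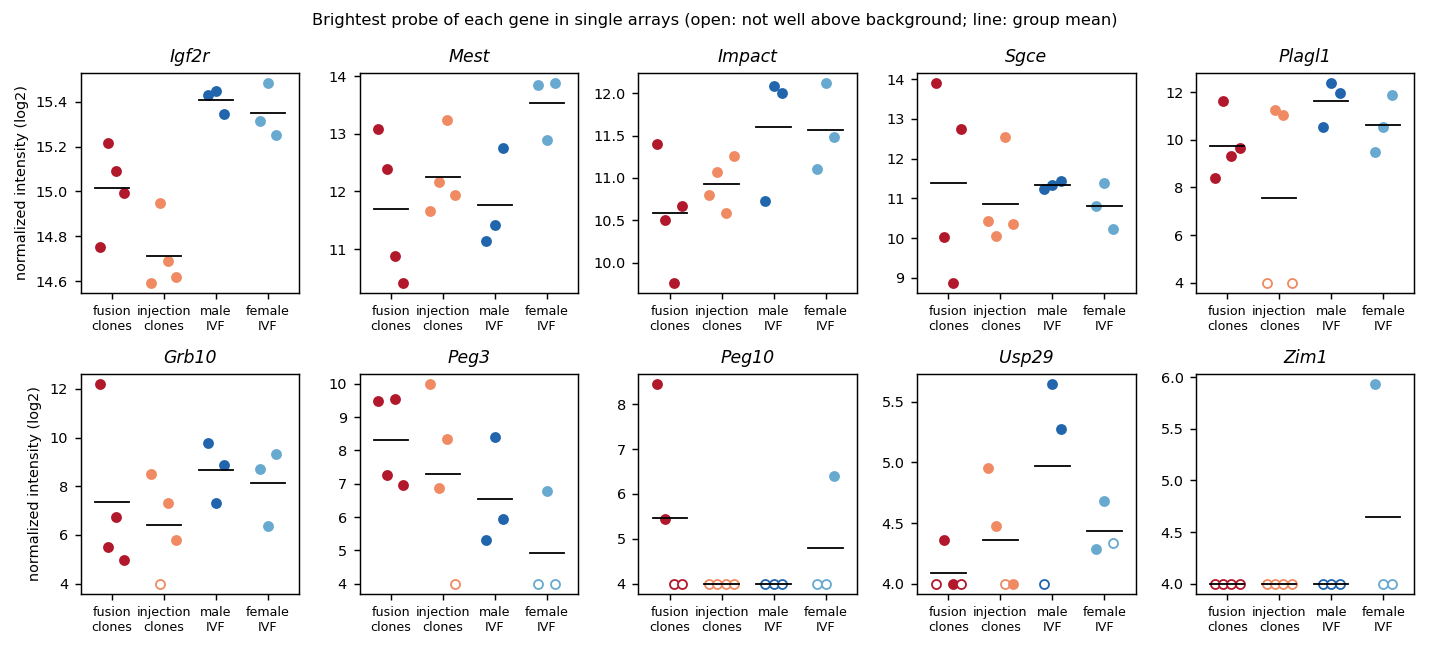
Each panel plots the log2 normalized intensity of the brightest probe of a gene on the 14 arrays, by group, with open circles for spots not well above background and a line at the group mean. Igf2r sits lower in all 8 clones than in all 6 IVF-derived embryos. Grb10 and Peg3 spread widely within groups, Sgce within the clone groups, and Plagl1 most among the injection clones.

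Igf2r encodes the receptor that binds IGF2 and carries it to the lysosome, and so limits this growth factor. Of the members detected on all 14 arrays, it varied least within every group. Its values were 14.75, 15.22, 15.09 and 14.99 in the fusion clones and 14.59, 14.95, 14.69 and 14.62 in the injection clones. They were 15.43, 15.45 and 15.34 in the male and 15.32, 15.48 and 15.25 in the female IVF-derived embryos. All 8 clones lay below all 6 IVF-derived embryos, with fusion clone 2 (15.22) next to female embryo 3 (15.25). Over the whole array, 4.02% of probes were lower in all clones than in all embryos without overlap. Injection clones averaged 14.71 ± 0.16 (SD, n = 4) against 15.35 ± 0.12 (SD, n = 3) in female embryos. The difference was -0.64 (SE 0.15, 95% interval -0.995 to -0.28), or 1.56-fold lower, with an adjusted p of 0.0685 by limma. Fusion clones averaged 15.01 ± 0.20 (SD, n = 4), a difference from female embryos of -0.34 (SE 0.18, adjusted p = 0.275). Neither difference passed the threshold of an adjusted p below 0.05. The injection difference passed it under 5 of the other settings tried, with an adjusted p of 0.0489 after percentile scaling, 0.0459 with a floor of 32, 0.0209 with all 4 groups in one fit, 0.0448 with a variance trend and 0.0477 against male embryos. When the 8 clones were taken as 1 group against the 6 IVF-derived embryos of both sexes, a comparison added after the data were seen, Igf2r was lower by 0.52 on the log2 scale, with the value -0.52 (SE 0.11, 95% interval -0.76 to -0.27), or 1.43-fold, and an adjusted p of 0.00604. It was the 1 member probe of 16 tested that passed there, where 20.6% of all probes passed (12.2% lower in clones). Igf2r passed in that comparison under each of the other settings run and without each library in turn, with differences from -0.61 to -0.47. Male and female embryos differed by 0.06 (adjusted p = 0.926), and fusion minus injection clones was 0.30 (SE 0.14, adjusted p = 0.814). Of the 3 Airn probes, 1 had a mean of 7.31 ± 1.31 (SD) in the 4 injection clones and 4.88 ± 1.26 in the 3 female embryos (adjusted p = 0.178), and 4.59 in the fusion clones. The other Airn probes were near the floor, with injection minus female differences of 0.19 and 0.24 that did not pass.

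Mest encodes a protein of the alpha/beta hydrolase family and marks growing mesoderm later in development. Its values were 13.09, 12.40, 10.89 and 10.42 in the fusion clones, and 11.65, 12.17, 13.24 and 11.94 in the injection clones. They were 11.14, 11.41 and 12.75 in the male and 13.84, 12.89 and 13.88 in the female IVF-derived embryos. The female embryos were the high group, and the males lay among the clones. Fusion minus female was -1.84 (SE 0.70, 95% interval -3.53 to -0.15), or 3.58-fold lower, with an adjusted p of 0.156. Injection minus female was -1.28 (SE 0.45, adjusted p = 0.165). Male minus female was -1.77 (SE 0.53, 95% interval -3.10 to -0.44, adjusted p = 0.552), and the values of both sexes did not overlap (12.8% of all probes did not). Mest was also past the study's threshold between the sexes, as were 5.79% of all probes. Against the male embryos the sign of the injection difference turned, to 0.49. Mest is autosomal, and sex and slide cannot be told apart in the embryos.

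Impact encodes an inhibitor of the kinase GCN2, which slows translation when amino acids are short. Its values were 11.40, 10.51, 9.76 and 10.66 in the fusion clones, and 10.80, 11.07, 10.59 and 11.26 in the injection clones. They were 10.73, 12.09 and 12.00 in the male and 11.10, 12.12 and 11.49 in the female embryos. The clones lay lower on average, with overlap through fusion clone 1, injection clone 4 and male embryo 1. The difference from female embryos was -0.99 in fusion clones (SE 0.43, adjusted p = 0.203) and -0.64 in injection clones (SE 0.29, adjusted p = 0.252). All clones minus all embryos was -0.83 (SE 0.28, adjusted p = 0.0542). That value passed the threshold when any of 4 libraries was left out. The adjusted p was 0.0225 without male embryo 1, 0.0417 without fusion clone 1, 0.0447 without female embryo 1 and 0.0451 without injection clone 4. Without any 1 of the other 10 libraries it did not pass (adjusted p up to 0.113).

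Sgce and Peg10 share an oocyte-methylated promoter region. Sgce encodes epsilon-sarcoglycan, a membrane protein of the dystrophin complex, and Peg10 is a gene derived from a retrotransposon that is needed in the placenta. The brighter Sgce probe read 13.90, 10.03, 8.88 and 12.74 in the fusion clones, and 10.44, 10.06, 12.55 and 10.35 in the injection clones. It read 11.24, 11.34 and 11.43 in the male and 10.80, 11.38 and 10.23 in the female embryos. At this probe, fusion clones 1 and 4 and injection clone 3 lay above every IVF-derived embryo. Fusion clones 2 and 3 and injection clone 2 lay below every one there. The second Sgce probe read 12.37, 8.10, 7.25 and 11.04 in the fusion clones, and 9.31, 8.70, 11.27 and 8.71 in the injection clones. It read 8.60, 9.44 and 9.66 in the male and 9.18, 9.19 and 8.48 in the female embryos. Both probes put the same 3 clones highest, so that the spread was not that of 1 probe alone. With group means removed, their correlation was 0.98 over the 14 arrays, as a description. The differences between group means were smaller than their errors: fusion minus female was 0.58 (SE 1.24, adjusted p = 0.774), and injection minus female 0.05 (adjusted p = 0.982). The primitive endoderm markers also varied among the clones. Their summed intensity was 74100, 145100, 160800 and 79940 in the fusion clones, lowest in the clones where Sgce was high. It was 62970, 83200, 136100 and 61410 in the injection clones, highest in the clone where Sgce was high. It ran from 63840 to 100300 in the male and from 94680 to 139800 in the female embryos. Gata6 made up most of each sum, and it read 16.06, 16.61, 16.69 and 16.27 in the fusion clones. Of the 5 markers, 4, 5, 5 and 2 were detected in the fusion clones and 5, 3, 5 and 5 in the injection clones, and their part in the Sgce values was not tested. Peg10 was detected in fusion clones 1 and 2, at 8.44 and 5.43, and in female embryo 3, at 6.40, and stood at the floor on the other 11 arrays.

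**Figure D2:**
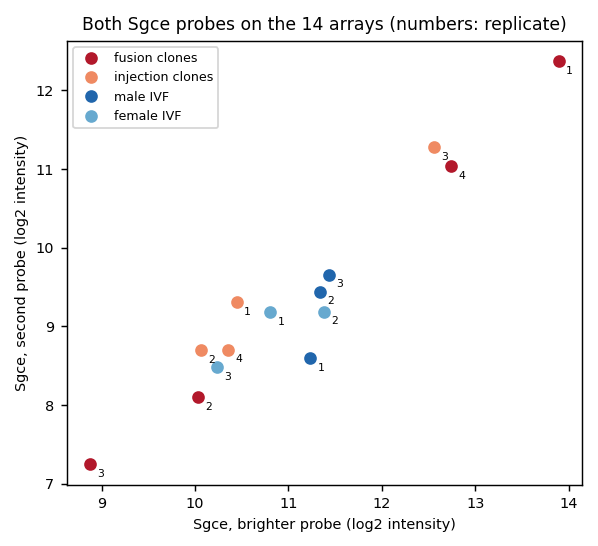
The log2 intensity of the brighter Sgce probe (horizontal axis) is plotted against that of the second Sgce probe (vertical axis) for the 14 arrays, with the replicate number at each point. Fusion clones 1 and 4 and injection clone 3 stand at the upper right and fusion clones 2 and 3 at the lower left. The 6 IVF-derived embryos stay together in between, with injection clones 1, 2 and 4 near them.

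Plagl1 encodes a zinc finger transcription factor, also called ZAC1, and Grb10 an adaptor protein that restrains insulin and IGF receptors. The brightest Plagl1 probe read 8.39, 11.64, 9.33 and 9.66 in the fusion clones. In the injection clones it was not well above background in clones 1 and 4, and read 11.27 and 11.03 in clones 2 and 3. It read 10.54, 12.37 and 11.95 in the male and 9.498, 10.53 and 11.88 in the female embryos. This probe was thus detected in every IVF-derived embryo and fusion clone, and was either bright or at background in the injection clones. Injection minus female was -3.06 (SE 2.26, 95% interval -8.54 to 2.41, adjusted p = 0.479), and fusion minus female -0.88 (adjusted p = 0.552). The other Plagl1 probe ran from the floor to 6.38 and was well above background in all 4 injection clones, at 4.88 in clone 1 and 4.32 in clone 4. Grb10 read 12.19, 5.51, 6.74 and 4.99 in the fusion clones, and 8.49, 7.31 and 5.78 in injection clones 1, 3 and 4, with injection clone 2 not well above background. It read 9.77, 7.31 and 8.89 in the male and 8.70, 6.39 and 9.31 in the female embryos. Fusion clone 1 was the highest of all 14 samples, and the remaining fusion clones lay below most embryos. Fusion minus female was -0.77 (SE 1.84, adjusted p = 0.798) and injection minus female -1.74 (SE 1.23, adjusted p = 0.460). One other Grb10 probe was detected in fusion clone 1 alone, at 5.80.

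Peg3, Usp29 and Zim1 lie together in 1 cluster. Peg3 encodes a large zinc finger protein and Usp29 a deubiquitinating enzyme. Zim1 is a zinc finger gene. Peg3 read 9.48, 7.25, 9.55 and 6.95 in the fusion clones, and 9.99, 6.87 and 8.35 in injection clones 1 to 3, with injection clone 4 not well above background. It read 5.32, 8.40 and 5.94 in the male embryos, and 6.79 in female embryo 2, with female embryos 1 and 3 not well above background. By this probe all 4 fusion clones lay above all 3 female embryos, and the males and the injection clones overlapped both. Fusion minus female was 3.38 (SE 1.004, 95% interval 0.97 to 5.79), with an adjusted p of 0.0860, which missed the threshold. Since 2 of the 3 female values stood at the floor, the size of this difference depended on the floor and scaling, and it ran from 1.103 to 6.14 under the other settings. Without female embryo 2, the female in which this probe was detected, the difference was 4.31 and passed, with an adjusted p of 0.0483. In the other 6 fits without 1 library it did not pass (adjusted p up to 0.209). Injection minus female was 2.37 (SE 1.52, adjusted p = 0.413). For all clones against all embryos the difference was 2.07 (adjusted p = 0.150), and without injection clone 4 it was 2.61 (adjusted p = 0.0343). The other 13 fits without 1 library did not pass there (adjusted p up to 0.275). Another Peg3 probe was detected in male embryo 2 (4.70) and female embryo 1 (4.38) and in 0 clones, and the last on 0 arrays. Usp29 stayed between the floor and 5.64 on every array, and Zim1 was detected in female embryo 1 alone, at 5.93.

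**Figure D3:**
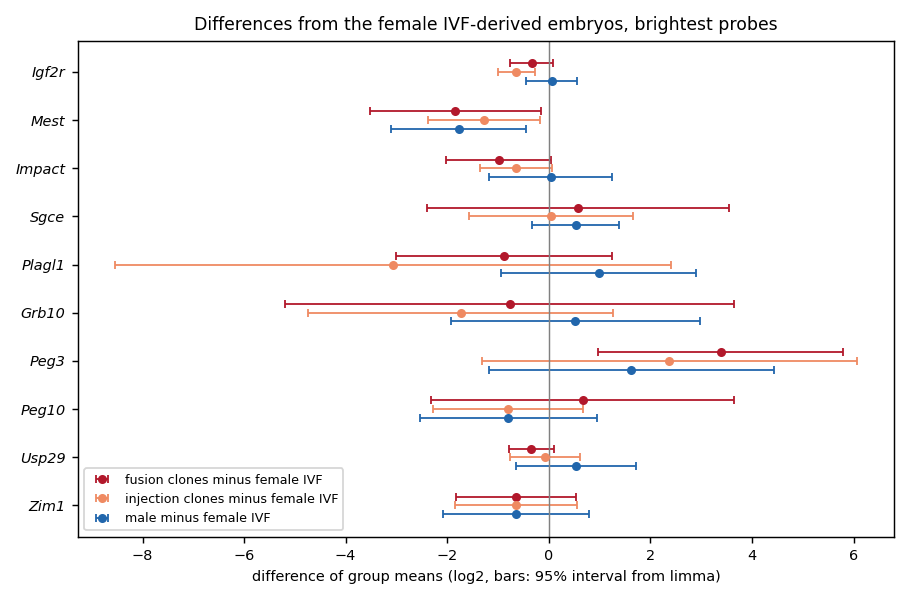
Points give the log2 difference of group means from the female IVF-derived embryos for the brightest probe of each gene tested, with 95% intervals from limma, for fusion clones, injection clones and male embryos. The intervals of Igf2r are the narrowest and those of Plagl1, Grb10 and Peg3 are several log2 units wide.

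The study used these blastocysts to ask whether the way of transferring the nucleus changed expression, with IVF-derived embryos as controls. At an adjusted p below 0.05, 0 of 14 member probes tested differed between fusion clones and female embryos, where 9.49% of 32458 probes did, and 0 of 15 between injection clones and female embryos, where 3.67% of 32840 did. At an unadjusted p below 0.05 by limma, 2 member probes did in each comparison, Mest and Peg3 in fusion clones (27.2% of all probes) and Mest and Igf2r in injection clones (23.2% of all probes). With at least a 2-fold difference as well, the threshold of the study's methods, 2 member probes remained in fusion clones (17% of all probes) and 1, Mest, in injection clones (14% of all probes). The groups did not overlap for 2 probes in fusion clones, Peg3 and Igf2r, beside 25.8% of all probes, and for 1 in injection clones, Igf2r, beside 20.9%. Over the members tested, the median difference was -0.21 in fusion clones and -0.13 in injection clones, against -0.12 and -0.08 over all probes. The median size of the difference, sign left aside, was 0.66 and 0.64 against 0.56 and 0.53. These shares lie at or below those of the whole array. Fusion and injection clones differed at 0 of 14 member probes by limma (0 at an unadjusted p below 0.05), where 0% of 32303 probes passed and 1993 had an unadjusted p below 0.05. Male and female embryos differed at 0 of 14 member probes (1, Mest, at an unadjusted p below 0.05, as 7.77% of all probes), where 0.0593% of 32038 probes passed. Both clone comparisons share the 3 female embryos, so that a high or low female value moves both.

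Several members spread widely among the fusion clones. Among the 4 fusion clones, the lowest and highest Grb10 values were 7.20 apart, and 0.024% of the 20851 probes detected in all 4 had a range as wide. The ranges of the Sgce probes were 5.02 and 5.13, with 0.35% and 0.297% of probes as wide, against a median range of 0.77. Plagl1 (3.25), Mest (2.67) and Peg3 (2.60) had ranges that 2.94%, 5.76% and 6.24% of probes reached, Impact (1.64) one that 18.5% reached, and Igf2r (0.46) one that 74.7% reached. Fusion clone 1 was the highest of the 4 in Grb10, Peg10, Sgce, Mest and Impact and the lowest in Igf2r and Plagl1. Among the injection clones, the Sgce ranges were 2.49 and 2.57, as wide as 8.69% and 7.86% of probes, and Igf2r spanned 0.36. The IVF-derived embryos were not even throughout: Peg3 spanned 3.08 in the male embryos (3.02% of probes as wide), and Grb10 spanned 2.46 in the male and 2.92 in the female embryos (6.72% and 4.5%). The brighter Sgce probe spanned 0.20 in the males and 1.15 in the females. Groups of 3 span less than groups of 4 for the same spread, and no difference in spread between groups was tested.

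**Figure D4:**
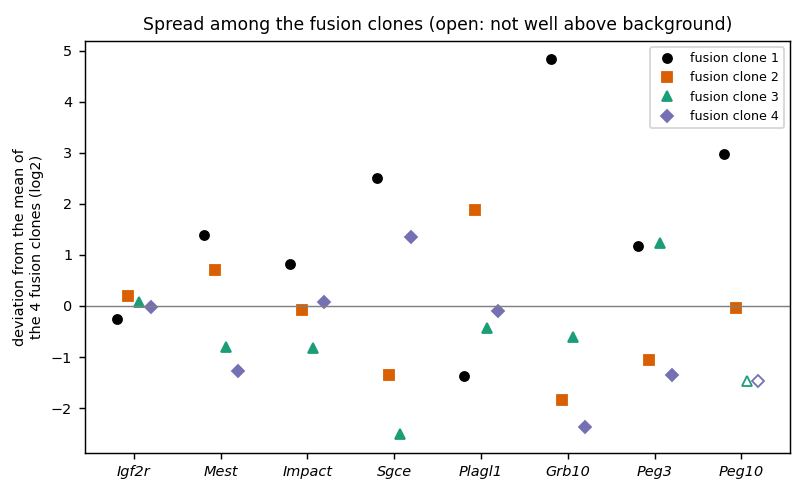
Points give the deviation of each fusion clone from the mean of the 4 fusion clones, in log2, for the brightest probe of 8 genes, with open symbols for spots not well above background. Fusion clone 1 lies at the top for Grb10, Peg10, Sgce, Mest and Impact and at the bottom for Igf2r and Plagl1, and the Igf2r points lie closest together.

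For the members detected on all 14 arrays, the genes whose values ran most alike were sought among 15751 detected probes with a symbol, with group means removed. For Igf2r they were Oas1e (Pearson r = 0.92) and Oas1d (0.89), for Impact Ppt1 (0.92) and Dennd4a (0.90), for Mest B3galnt2 (0.92) and Arpc1a (0.84), and for Sgce Nanos1 (0.94) and 4930555K19Rik (0.90). These are the highest of 15751 values over 14 arrays that share slides and normalization, and are given as a description.

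Zfp57, Setdb1 and Dnmt1, genes that hold imprints through early development, were lower in both kinds of clone. Of 26 probes of 15 such genes tested, 1 was higher and 3 were lower in fusion clones (15.4% of the list, against 9.49% of all probes), and 0 were higher and 4 lower in injection clones (15.4% against 3.67%). Zfp57 read 4.68, 4.92, 5.90 and 5.38 in the fusion clones and 4.65, 4.82, 4.80 and 6.02 in the injection clones. It read 7.49, 7.86 and 8.11 in the male and 7.91, 8.03 and 8.85 in the female embryos. Every clone lay below every IVF-derived embryo, as at 4.02% of all probes. Zfp57 fell by 3.04 on the log2 scale in fusion clones, or 8.25-fold (SE 0.38, adjusted p = 0.00966), and by 9.14-fold in injection clones (SE 0.42, adjusted p = 0.0259). The clone values lay near the floor, and these sizes depended on the processing. Under the other settings the log2 differences ran from -3.10 to -1.74 in fusion and from -3.51 to -1.81 in injection clones. Setdb1, which encodes the histone H3 lysine methyltransferase that is recruited with ZFP57 through TRIM28, read 9.54, 10.08, 10.44 and 9.73 in the fusion clones and 10.27, 9.75, 10.13 and 10.84 in the injection clones. It read 11.98, 11.46 and 11.63 in the male and 11.82, 12.16 and 11.87 in the female embryos, with every clone again below every embryo. It was 4.01-fold lower in fusion clones (adjusted p = 0.0104) and 3.26-fold lower in injection clones (adjusted p = 0.0371). Dnmt1, the maintenance DNA methyltransferase, read 10.16, 11.11, 11.09 and 10.69 in the fusion and 10.36, 10.67, 10.60 and 11.13 in the injection clones, against 11.83, 12.51 and 12.17 in the female embryos. It was 2.65-fold lower in fusion clones (adjusted p = 0.0390) and 2.79-fold lower in injection clones (adjusted p = 0.0405). Uhrf1, which guides DNMT1 to newly copied DNA, was 2.35-fold lower in injection clones by 1 probe (adjusted p = 0.0453), whereas its other probe missed the threshold there (adjusted p = 0.0662). One probe of Dnmt3a, a de novo DNA methyltransferase, was 5.34-fold higher in fusion clones (adjusted p = 0.0255), and its other probes gave -0.93 and -0.15 and did not pass. The median over the list was -0.24 in fusion and -0.02 in injection clones, beside -0.12 and -0.08 over all probes. The fusion calls of Zfp57 and Setdb1 remained without each library in turn. The fusion call of Dnmt1 was lost without any 1 of the 7 libraries (adjusted p = 0.0558 to 0.0929), and so was the injection call of Uhrf1. The injection call of Zfp57 was lost without injection clone 1, 2 or 3 or female embryo 1 or 3 (adjusted p up to 0.0771). Of the 7 fits that each left out 1 library, 6 lost the injection calls of Setdb1 (adjusted p up to 0.100) and Dnmt1 (up to 0.108), and 5 lost the fusion call of Dnmt3a (up to 0.0706).

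**Figure D5:**
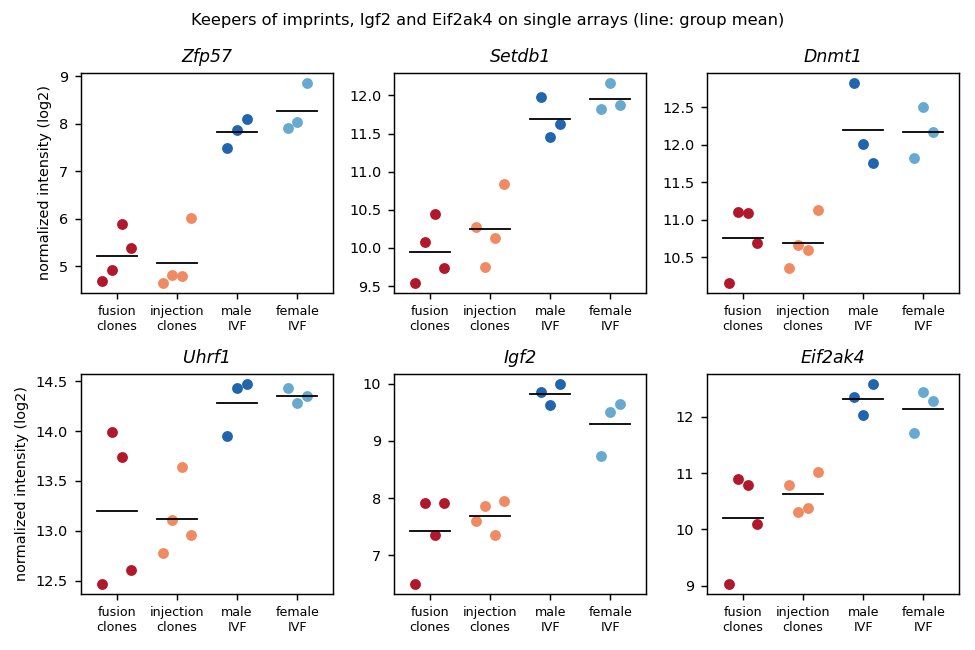
Each panel plots log2 normalized intensity of 1 probe on the 14 arrays, by group, with a line at the group mean, for 4 genes that hold imprints and for Igf2 and Eif2ak4. The 8 clones lie below the 6 IVF-derived embryos for Zfp57, Setdb1, Dnmt1, Igf2 and Eif2ak4, and overlap them slightly for Uhrf1.

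Ligands and partners around IGF2R and GRB10 were taken from a list of the insulin-like growth factor axis. Of 44 probes tested in fusion clones, 0 were higher and 5 lower (11.4% of the list, against 9.49%), and of 48 in injection clones, 0 were higher and 3 lower (6.25% against 3.67%). The median difference was -0.40 and -0.39. Igf2, the ligand that IGF2R clears, read 6.50, 7.91, 7.36 and 7.91 in the fusion clones and 7.60, 7.86, 7.35 and 7.95 in the injection clones. It read 9.85, 9.63 and 9.99 in the male and 8.73, 9.499 and 9.65 in the female embryos. All clones thus lay below all embryos, as at 4.02% of all probes. By this probe Igf2 was 3.67-fold lower in fusion clones (SE 0.43, adjusted p = 0.0438) and 3.04-fold lower in injection clones (adjusted p = 0.0423). Its other probe gave -1.54 and -1.32 and did not pass (adjusted p = 0.117 and 0.0673). One Igf1 probe, detected in 2 of 4 fusion clones, 1 of 4 injection clones and all embryos, gave -4.22 in fusion clones (adjusted p = 0.0248) and -4.68 in injection clones (adjusted p = 0.0337), and another gave -5.32 in injection clones (adjusted p = 0.0493). With most clone values at the floor these sizes depended on it: under the other settings they ran from -4.66 to -2.62, from -5.695 to -2.86 and from -6.96 to -3.29. Of the IGF binding proteins, Igfbp6 was at least 2.26-fold lower (adjusted p = 0.0224) and 1 Igfbp3 probe at least 2.06-fold lower (adjusted p = 0.0375) in fusion clones, all 4 of which had both at background. The 3 male embryos also had both at background, so that the female embryos stood apart there. Both probes entered the test through the female embryos alone, and both are among the 5 lower probes of this list. Igf2bp2, which binds Igf2 mRNA, was 1.56-fold lower in fusion clones (adjusted p = 0.0499). The fusion calls of Igf2 (adjusted p = 0.0552 to 0.114) and Igf2bp2 (up to 0.121) were lost without any 1 of the 7 libraries. The injection call of Igf2 was lost in 6 of 7 such fits (up to 0.106), the fusion calls of Igfbp3 and Igfbp6 in 6 and 5 (up to 0.0944), and the calls of the Igf1 probes in 5 or 6 (up to 0.123). The sign stayed in each of these fits.

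The partners of IMPACT in the GCN2 pathway gave 0 calls among 14 probes in fusion clones, and 0 higher and 2 lower among 13 in injection clones (15.4% of the list, against 3.67%). Their median difference was -0.57 and -0.66. Eif2ak4, which encodes GCN2 itself, read 9.03, 10.89, 10.79 and 10.09 in the fusion and 10.78, 10.30, 10.38 and 11.02 in the injection clones. It read 12.34, 12.04 and 12.58 in the male and 11.71, 12.44 and 12.27 in the female embryos. It was thus lower in every clone than in every embryo, as were 4.02% of all probes. The injection difference was 2.87-fold (adjusted p = 0.0428), and the fusion difference was -1.94 (adjusted p = 0.0569). Gcn1, which encodes an activator of GCN2, gave -0.998 in injection clones (adjusted p = 0.0260), and gave -0.74 in fusion clones (adjusted p = 0.0580). The other probes of Eif2ak4 and Gcn1 did not pass in either comparison, with 0.39 and 0.82 at 2 Gcn1 probes in fusion clones. The injection call of Eif2ak4 was lost in 6 (adjusted p up to 0.111) and that of Gcn1 in 5 (up to 0.0822) of the 7 fits without 1 library.

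Few probes of the neighbors of the members in their imprinted clusters passed the test. Of 35 probes tested in fusion clones, 0 were higher and 2 lower (5.71%, against 9.49% of all probes). Both were probes of Cep41, which lies near Mest and encodes a centrosomal protein, with differences of -1.47 (adjusted p = 0.0216) and -1.98 (adjusted p = 0.0385). The male embryos read 7.06, 7.78 and 8.79 at the first of these probes, among the clones, and 9.73, 9.40 and 10.83 at the second. Against the male embryos the differences were -0.33 and -0.99 and did not pass. The remaining Cep41 probes gave -0.24 and 0.47, and the 2 calls were lost in 4 and 5 of the 7 fits without 1 library (adjusted p up to 0.0907). Of 39 neighbor probes in injection clones, 0 passed by limma (0%, against 3.67% of all probes). Copg2, the direct neighbor of Mest, differed between all clones and all embryos by 0.06 and 0.09 at its brighter probes and did not pass. The neighbor list had a median of 0.01 in fusion and -0.23 in injection clones.

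Other oocyte-methylated loci were counted for comparison. In fusion clones 2 of 39 probes were higher and 4 lower (15.4%, against 9.49% of all probes). In injection clones 1 of 38 was higher and 1 lower (5.26%, against 3.67%). H13, a signal peptide peptidase, was not well above background in the 3 female embryos at 1 probe, with a level at least 15.6-fold higher among fusion clones (adjusted p = 0.00587) and at least 13.5-fold higher among injection clones (adjusted p = 0.0148). The male embryos read 9.01, 8.14 and 5.91 at this probe, among the clones, with differences of 0.27 and 0.06 from them, and the other H13 probes gave 0.04 and 0.79 in fusion and 0.23 and 1.63 in injection clones and did not pass. Magel2, in the Prader-Willi cluster, gave -1.48 (adjusted p = 0.0278) in fusion and -1.68 (adjusted p = 0.0278) in injection clones. In fusion clones Commd1, a regulator of copper and NF-kappaB, gave -1.55 (adjusted p = 0.00477), 2 probes of Gnas, the stimulatory G protein, -1.30 (adjusted p = 0.0160) and -1.20 (adjusted p = 0.0263), and Slc38a4, an amino acid transporter, 2.03 (adjusted p = 0.0216). In the 7 fits without 1 library, the fusion calls of H13 and Commd1 stayed in all 7, the injection call of H13 was lost without injection clone 3 (adjusted p = 0.0521), and those of Magel2, Slc38a4 and the Gnas probes were lost in 1 to 6 (up to 0.0820). The median over this list was -0.14 and 0.09. Among relatives of PEG10, the zinc finger members and SGCE, 1 of 8 probes was higher in fusion clones, where 9.49% of all probes passed. In injection clones 1 of 10 was higher, where 3.67% of all probes passed. In both, 0 were lower, with medians of 1.61 and 0.76 against -0.12 and -0.08 over all probes. Both calls were the same Sgcb probe, of beta-sarcoglycan, a partner of the sarcoglycan complex. It read 12.06, 11.21, 11.48 and 10.28 in the fusion and 11.24, 12.19, 11.13 and 11.95 in the injection clones, and 9.98, 8.37, 7.27, 7.91, 6.57 and 9.33 in the embryos, males before females. All clones lay above all embryos, as at 2.25% of all probes. From the females, the difference was 9.99-fold in fusion (adjusted p = 0.0387) and 12.9-fold in injection clones (adjusted p = 0.0452). Another Sgcb probe gave 1.56 and 2.08 and did not pass. The Sgcb calls were lost in 6 of the 7 fits without 1 library in either comparison (adjusted p up to 0.110). With male in place of female controls, the calls of Zfp57, Setdb1 and Igf2 in both kinds of clone, of Commd1 in fusion and of Eif2ak4 in injection clones stayed past the threshold, those of Igfbp3 and Igfbp6 were not tested there, and those of the other list genes named did not pass.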

How the data were processed

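The 14 arrays were assigned to 4 groups from their labels. The authors deposited, for each array, Agilent Feature Extraction output (version 10.5.1.1 for clones, 9.5.3.1 for IVF-derived embryos) with background-subtracted processed intensities on a linear scale, not normalized between arrays. A log2 table that the authors deposited beside these files served as an alternative; differences between arrays in it correlated at 0.984 or more with those computed here. The submitters' processing notes name Feature Extraction 10.5.1.

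Control spots (1639 of 45018) and outlier-marked spots (101 to 338 per array) were left out. Quantile normalization was applied to the processed intensities of the 14 arrays, values under 16 (log2 of 4) were raised to 16, and log2 values were averaged per probe. A probe entered a test if any array of either group had it well above background, and was tested with lmFit and eBayes of limma 3.58.1 (R 4.3.3) and Benjamini-Hochberg adjustment over all probes tested. This filter and quantile normalization follow the study's methods, whose threshold was an unadjusted 5% level with a 2-fold difference. Intervals are 95% intervals. Precision is limited by the number of arrays. A fold written as "at least" compares the bright group with, on each array of the dim group, the dimmest detected probe or the probe itself, whichever is brighter. Scripts were tested on simulated data; Python 3.11.15 with matplotlib 3.10.9 drew the plots. RefSeq symbols (GRCm38.p6) were found for 32716 of 41174 gene probes (79.5%).

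The members and the gene lists were chosen with earlier results of these data known. Named were every member, the genes of each list that passed the test in a comparison of clones with female embryos (at most 6 a list), and for each member detected on all 14 arrays the 2 most correlated genes. Airn, Copg2 and the other probes of named genes were added as their neighbors or alternatives. Comparing all clones with all IVF-derived embryos was added after the data were seen.

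Same-numbered male and female embryos deviated together from their group means (r = 0.15, 0.17 and 0.17), but the labels name no pairs. The comparison of the sexes above was fitted without pairs. With the replicate number as a block, 0 member probes passed between the sexes. Alternatives tried were the background correction (normexp on median signals, offset 50), scaling to the 75th percentile, the deposited log2 values, floors of 1 and 32, other filters, outlier spots kept, probes averaged per gene, 1 fit of all groups, a variance trend, male controls, the replicate block and leaving out each replicate. The deposited table holds 0 columns without a sample.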

Additional observations from a re-analysis of the deposited data

Results flagged for a closer look

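Of 24 groups of 4 clones with any spread, 5 held a sample past Dixon's gap criterion. Among groups without ties chance passes it in about 5%, a rate that does not hold for 4 of these 5 groups, where the 3 other clones were tied at the floor and any value above it passes. In the brighter Sgce probe, injection clone 3 read 12.55, and the next clone 10.44. In 1 Grb10 probe, fusion clone 1 read 5.80 and the other fusion clones stood at the floor of 4. In 1 Peg3 probe of low signal, fusion clone 4 read 4.21 and the others stood at the floor. In the brighter Usp29 probe, fusion clone 2 read 4.36, and in the other Usp29 probe, injection clone 2 read 4.87, each with the other clones of its group at the floor.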

How the results depend on the processing

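Across the alternatives, the values of single members kept their direction and their side of the threshold in 932 cases, passed it newly in 13 and changed sign in 30. Fusion minus female Grb10 was 0.0166 with the replicate block. Injection minus female Usp29 was 0.11 with percentile scaling, 0.0706 with probes averaged per gene and 0.0424 with the replicate block, and against male controls Mest was 0.49 and Sgce -0.48. Zim1 between all clones and all embryos was 0.42 with the deposited log2 values. Leaving out each replicate, fusion minus female ran from -0.32 to 1.47 for Peg10, -0.26 to 1.42 for Sgce and -2.38 to 0.0166 for Grb10, and injection minus female from -0.28 to 0.0455 for Usp29 and -0.52 to 0.34 for Sgce. Fusion minus injection ran from -0.0924 to 1.90 for Peg3, -0.30 to 1.37 for Sgce and -0.64 to 1.76 for Grb10, male minus female from -0.35 to 1.20 for Grb10 and -0.21 to 0.47 for Impact, and all clones minus all embryos from -0.20 to 0.73 for Peg10 and -0.35 to 0.37 for Sgce. The cause was not tested.

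At the methods' threshold the count of member probes was 2 in fusion and 1 in injection clones and 1 between the sexes. At an adjusted p below 0.05, where the fusion and injection counts were 0, Igf2r made the injection count 1 with percentile scaling, a floor of 32, 1 fit of all groups, a variance trend and male controls, and a dim Peg3 probe made it 1 with a floor of 1. The count for all clones against all embryos was 2 with normexp and the stricter filter (Igf2r and Impact) and with the deposited values and a floor of 1 (Igf2r and a dim Usp29 probe). At the same threshold, leaving out each replicate, the fusion count ran from 0 to 1 and the count for all clones from 1 to 3, and other member counts stayed at 0.

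In the lists, probes called kept their call in 334 cases and lost it in 264, with 0 changes of sign. Leaving out each replicate, the fusion counts ran from 0 to 2 for neighbors, 2 to 7 for other loci, 2 to 3 for imprint keepers, 0 to 4 for the IGF axis and 0 to 1 for the GCN2 pathway and for relatives, and the injection counts from 0 to 0, 0 to 3, 0 to 3, 0 to 2, 0 to 1 and 0 to 1. Under the other settings they ran, in the same order, from 0 to 2, 0 to 9, 0 to 6, 0 to 8, 0 to 3 and 0 to 2 in fusion and from 0 to 1, 0 to 5, 0 to 5, 0 to 6, 0 to 3 and 0 to 2 in injection clones.

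In the clone comparisons, same-numbered samples did not deviate together throughout. The r values were 0.10, 0.05 and -0.02 for fusion clones with female embryos, and -0.05, -0.04 and -0.12 for injection clones with female embryos. They were -0.01, -0.07, 0.17 and -0.05 for fusion with injection clones. The labels name no pairs here either. With the replicate block 0 member probes and 0 list probes passed in either clone comparison. Probes at the floor have no order below it, which limits Peg10, Zim1, Usp29 and part of Peg3, Plagl1 and Grb10.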
